A study of Homo sapiens with 18 samples.

Results

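EWS-FLI1 related genes were followed in SK-N-MC, a human cell line that the labels describe as neuroepithelioma, during exposure to rotenone, an inhibitor of complex I of the mitochondrial respiratory chain. The 10 genes were NR0B1, NKX2-2, GLI1, STEAP1, PRKCB, EZH2, CAV1, ID2, IGFBP3 and FLI1, taken by name, with no threshold on a measured value, though earlier results of these data were known when they were listed. A gene was read from the probe sets that the array annotation assigned to that gene alone, which gave 15 probe sets for 9 genes. No probe set was assigned to NR0B1 alone, and its transcript level was not analysed here. All 9 genes were among the 9162 genes tested. Cells received 5 nM rotenone, 50 nM rotenone or only the ethanol vehicle (0 nM) for 1 week or 4 weeks, in medium without pyruvate, with 3 arrays in each of 6 groups and 18 arrays in all. According to the labels the lower dose did not kill cells and the higher dose killed some of them. The paper that reported the data, however, measured a small but significant toxicity with the lower dose, which it calls marginally toxic. Each array carried RNA pooled from 5 dishes, and a p-value here reflects how far such pools of 1 cell line vary.

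EWS-FLI1 is the fusion protein that defines most Ewing sarcomas and related primitive neuroectodermal tumours: a chromosomal translocation joins the start of EWSR1, an RNA-binding protein gene, to the DNA-binding end of FLI1, an ETS-family transcription factor. The fusion protein binds GGAA motifs, activates genes such as NR0B1, NKX2-2, GLI1, STEAP1, PRKCB, EZH2, CAV1 and ID2, and silences others, of which IGFBP3 is a standard example. Arrays of this kind read transcript levels and carry no measure of the fusion protein or of its binding.

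The labelled cell type was set against marker genes. All 7 of the Ewing sarcoma markers that had a probe set were tested; in the 4-week vehicle cells CD99, the surface protein used in diagnosis, had a signal of 3314 ± 144 (SD, n = 3), and the cell cycle gene CCND1 had 1690 ± 89. Of 14 adrenergic neuroblastoma markers with a probe set, 9 were tested, and TH, DDC, HAND2, PHOX2A and STMN2 stayed below a signal of 50 on every array, while TFAP2B stood at 2258 ± 232 and GATA2 at 663.4 ± 74.9. The other markers tested on this list were DBH, CHGA, CHGB, GATA3, HAND1, ISL1 and MYCN. The listed genes other than NR0B1 were thus measurable in these cells. Of the catecholamine synthesis genes TH and DDC were not, while DBH was, and it rose with 50 nM at 1 week (log2 fold change 0.84, adjusted p = 0.00479). The markers therefore do not show that the adrenergic genes were absent. With 5 nM 1 of the 9 rose at each time (11.1%, against 6.59% and 32.9% of all genes). With 50 nM 3 rose at 1 week and 3 fell at 4 weeks (33.3% each, against 20.1% and 41.3%). Without the pair of arrays described in the next paragraph, 1 and 2 rose at 1 week. Between the vehicles 1 was higher at 4 weeks (11.1%, against 3.6%).

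Some arrays stood apart. Replicate 3 of the 1-week vehicle correlated with its group mates at r = 0.9139 at the lowest (log2 signal over the probe sets tested), whereas no lowest r outside that group was under 0.9673, and it had the lowest CAV1, ID2, NKX2-2 and EZH2 and the highest IGFBP3 and GLI1 of its group. The arrays labelled 5 nM replicate 2 and 50 nM replicate 3 at 1 week may have changed places, because tabulated group means that came with the paper match the deposited arrays only with the pair exchanged; the labels were kept, and the 1-week comparisons with vehicle were also computed without both arrays. Of all genes tested, 456 were higher and 148 lower with 5 nM at 1 week on all arrays, and 143 and 45 without the pair; with 50 nM the counts went from 802 and 1036 to 670 and 920. The 18 probe sets for hybridization controls, bacterial and phage transcripts added in fixed amounts, averaged 8.69 to 9.1 (log2 signal) on the 6 arrays with 4 weeks of rotenone and 9.69 to 10.1 on the other 12, so a technical difference coincided with that exposure and its part in the 4-week results was not tested. Array medians differed by 1.17-fold at most.

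**Figure D1:**
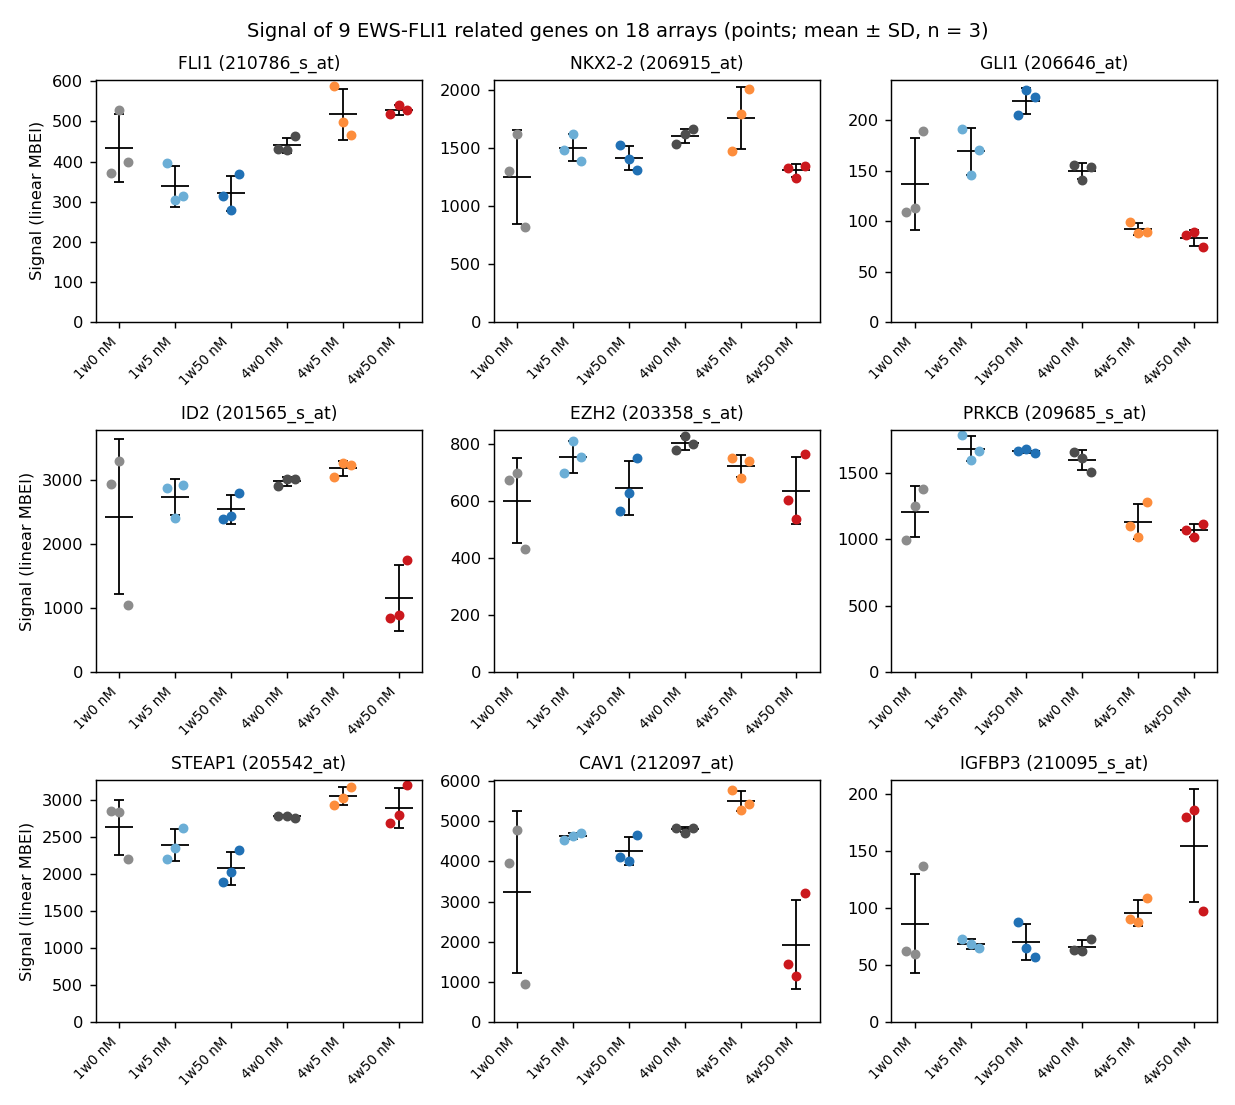
Signal (linear model-based expression index) of 9 genes on 18 arrays, each gene read from its leading probe set. Points are arrays, placed left to right as replicate 1, 2 and 3; the horizontal bar and whiskers are the mean and SD of 3 arrays. CAV1 and ID2 fall on the 4-week 50 nM arrays and on 1 array of the 1-week vehicle, and IGFBP3 is highest on 3 of these 4 arrays.

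After 4 weeks of 50 nM rotenone, 5 of the 9 genes passed an adjusted p of 0.05, against 41.3% of all genes tested (23.5% higher, 17.7% lower). CAV1, ID2, GLI1 and PRKCB were lower and IGFBP3 was higher. The median log2 fold change over the 9 genes was -0.354, and over all genes it was 0.0167. With 5 nM for 4 weeks 2 of the 9 passed, GLI1 and PRKCB, both lower, where 32.9% of all genes passed (18.6% higher, 14.3% lower). CAV1 and ID2 also differed between the doses at 4 weeks (2 of 9, both lower with 50 nM; 17.4% of all genes, 10.1% higher and 7.35% lower). The shares called were large for genes in general, so the counts describe these genes and set them apart from no others.

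After 1 week the picture was another one. With 50 nM, GLI1 and PRKCB were higher and STEAP1 was lower than in the vehicle (3 of 9; 20.1% of all genes, 8.75% higher and 11.3% lower), and with 5 nM only PRKCB passed, again higher (1 of 9; 6.59% of all genes, 4.98% higher and 1.62% lower). No gene of the 9 differed between 5 nM and 50 nM at 1 week, where 0.0109% of all genes passed. That comparison is the one an exchange of the pair of arrays that may have changed places would blur most. Without both arrays none of the 9 was called either, but few arrays remained, so the doses are not shown to have acted alike. None of the 9 differed on its leading probe set between the vehicle cells of 4 weeks and 1 week, where 3.6% of all genes passed (2.88% higher, 0.72% lower). The effect of 5 nM differed between 4 weeks and 1 week for 3 of the 9 genes (32.7% of all genes, 15.2% higher and 17.5% lower), and that of 50 nM for 7 of the 9 (44.8% of all genes, 24.3% higher and 20.5% lower). Unless another test, fit or setting is named with it, a p-value is from limma with Benjamini-Hochberg adjustment over all 9162 genes. Values for probe sets other than the leading one are from the fit over all 13705 probe sets.

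**Figure D2:**
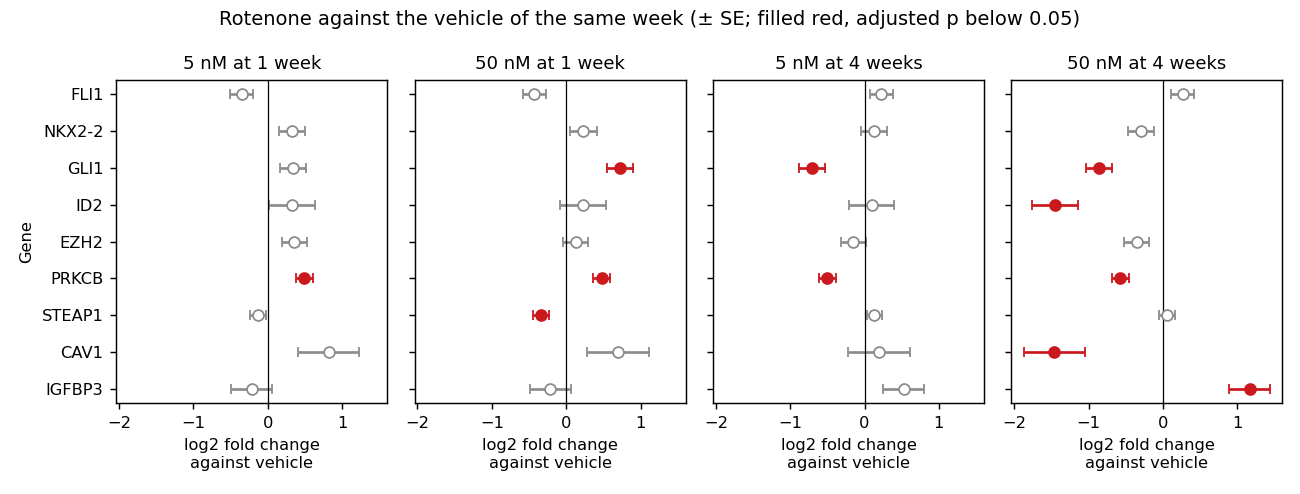
Log2 fold change of 9 genes against the vehicle of the same week, in 4 panels by dose and time. Whiskers are the standard error of the fit and filled red points have an adjusted p below 0.05; GLI1 and PRKCB lie right of 0 at 1 week and left of 0 at 4 weeks, and CAV1, ID2 and IGFBP3 are filled only with 50 nM for 4 weeks.

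FLI1 supplies the DNA-binding domain of the fusion and lies at chr11:128685132-128813267 (GRCh38.p14). Arrays like these cannot tell a fusion transcript from an unrearranged FLI1 transcript, and the annotation does not say which stretch of FLI1 each of its 3 probe sets reads. On the leading probe set, 210786_s_at, the 3 arrays gave 372, 530 and 398 in the 1-week vehicle, 397, 303 and 314 with 5 nM, and 314, 279 and 368 with 50 nM. At 4 weeks they gave 431, 428 and 462 in the vehicle, 588, 499 and 466 with 5 nM, and 517, 542 and 527 with 50 nM. The log2 fold changes at 4 weeks were 0.23 ± 0.152 with 5 nM (SE, adjusted p = 0.266) and 0.26 ± 0.152 with 50 nM (adjusted p = 0.177), and neither passed. At 1 week the difference of 50 nM from the vehicle did not pass (log2 fold change -0.43, adjusted p = 0.0552). That difference passed without the pair of arrays that may have changed places (-0.53, adjusted p = 0.0346 in the fit over all 13705 probe sets), and on 5 of 18 omissions of a single array (adjusted p down to 0.0306).

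The 3 FLI1 probe sets did not move together. Probe set 204236_at read 164, 187 and 179 in the 4-week vehicle, 349, 305 and 300 with 5 nM, and 367, 314 and 321 with 50 nM. Its rise was 0.85 ± 0.18 with 5 nM (adjusted p = 0.00187 in the fit over all 13705 probe sets) and 0.92 ± 0.18 with 50 nM (adjusted p = 0.000676). At 1 week it fell with 50 nM, from 157, 179 and 101 to 67.1, 82.6 and 88.4 (log2 fold change -0.84, adjusted p = 0.0037), and at -0.93 without the pair of arrays (adjusted p = 0.00593). Probe set 211825_s_at went the other way at 4 weeks, from 350, 284 and 290 in the vehicle to 248, 225 and 234 with 50 nM (log2 fold change -0.38 ± 0.141, adjusted p = 0.0378).

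Within an array, the log2 ratio of 204236_at to 211825_s_at was -0.8 ± 0.26 (SD, n = 3) in the 4-week vehicle, 0.34 ± 0.11 with 5 nM and 0.5 ± 0.05 with 50 nM. No array of the rotenone groups overlapped the vehicle in this ratio. The differences of 1.14 and 1.3 each had a two-sided exact permutation p of 0.1, the smallest that 3 arrays against 3 allow. At 1 week the ratio differed from the vehicle by 0.22 with 5 nM (exact p = 0.5) and by -0.71 with 50 nM (exact p = 0.2). The ratio was formed after these probe sets were seen to move apart, so it is a description, and which transcripts they stand for was not tested.

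**Figure D3:**
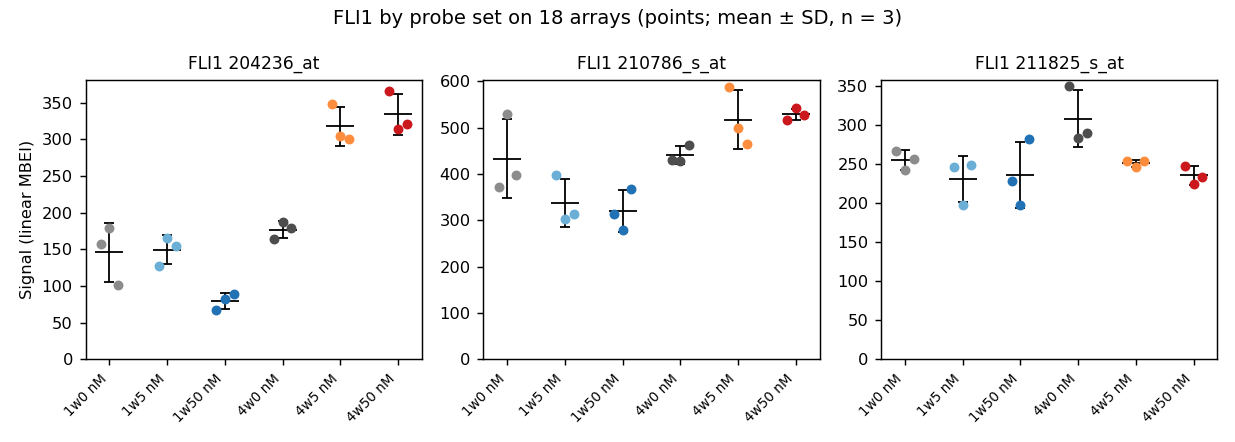
Signal of the 3 FLI1 probe sets on 18 arrays (points; mean and SD of 3 arrays, linear scale from 0). The left panel rises at 4 weeks with both doses, the middle panel changes little, and the right panel is lower with rotenone than in the 4-week vehicle.

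EWSR1, the partner at the start of the fusion, did not pass the test in any of the 4 comparisons with vehicle. Its log2 fold changes were 0.17, -0.06, 0.12 and 0.20 for 5 nM and 50 nM at 1 week and 5 nM and 50 nM at 4 weeks, with adjusted p from 0.238 to 0.776. ERG and ETV1, which replace FLI1 in rarer fusions, were not called either.

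GLI1, the zinc-finger transcription factor at the end of Hedgehog signalling (chr12:57459785-57472268), had low signals that turned with time. At 1 week the arrays read 109, 113 and 189 in the vehicle, 192, 146 and 170 with 5 nM, and 205, 230 and 224 with 50 nM. At 4 weeks they read 155, 141 and 154 in the vehicle, 99.2, 88.4 and 89.4 with 5 nM, and 86.2, 88.9 and 73.8 with 50 nM. With 50 nM every array lay above every vehicle array at 1 week and below every vehicle array at 4 weeks.

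The log2 fold change of GLI1 was 0.73 ± 0.175 with 50 nM at 1 week (adjusted p = 0.00794), -0.70 ± 0.175 with 5 nM at 4 weeks (adjusted p = 0.00533) and -0.86 ± 0.175 with 50 nM at 4 weeks (adjusted p = 0.000868). The 2 doses did not differ at 4 weeks (-0.16 ± 0.175, adjusted p = 0.609). Without replicate 3 of the 1-week vehicle the rise with 5 nM at 1 week was called as well (0.60, adjusted p = 0.00983). The test of the change in effect from 1 week to 4 weeks gave -1.05 for 5 nM (adjusted p = 0.00384) and -1.59 for 50 nM (adjusted p = 6.63e-05).

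Other genes of the Hedgehog pathway came from a list of 13, of which 8 had a probe set and 5 were tested. None passed at 1 week (6.59% of all genes with 5 nM, 20.1% with 50 nM). At 4 weeks 40% passed with 5 nM and 60% with 50 nM, against 32.9% and 41.3% of all genes. At 4 weeks PTCH1, the receptor that GLI factors induce, was higher with 5 nM (0.89 ± 0.248, adjusted p = 0.0108) and with 50 nM (0.71, adjusted p = 0.03). GLI3, mainly a repressor of the pathway, was lower with both doses (-1.35, adjusted p = 8.26e-05, and -1.13, adjusted p = 0.000217). GLI2, its main activator, was lower with 50 nM (-0.92, adjusted p = 0.000257) and at -0.38 with 5 nM (adjusted p = 0.0796), and the difference between doses was called (-0.54, adjusted p = 0.0281). SMO and GAS1 did not pass.

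PRKCB encodes protein kinase C beta, a calcium- and lipid-activated kinase, and lies at chr16:23835983-24220611. Its leading probe set, 209685_s_at, read 995, 1251 and 1375 in the 1-week vehicle, 1784, 1598 and 1667 with 5 nM, and 1661, 1679 and 1650 with 50 nM. At 4 weeks it read 1657, 1613 and 1510 in the vehicle, 1103, 1016 and 1278 with 5 nM, and 1071, 1018 and 1116 with 50 nM. The groups did not overlap in any of the 4 comparisons with vehicle. The 1-week vehicle itself was lower on average than the 4-week vehicle, a difference that did not pass (0.41 ± 0.114, adjusted p = 0.0523).

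PRKCB rose by a log2 fold change of 0.49 ± 0.114 with 5 nM (adjusted p = 0.0149) and 0.48 with 50 nM (adjusted p = 0.00781) at 1 week. At 4 weeks it fell with both doses, at -0.50 (adjusted p = 0.00297) and -0.58 (adjusted p = 0.000679). Without replicate 3 of the 1-week vehicle the 1-week values of PRKCB were 0.59 and 0.58, both called. The rise with 5 nM lost its call without replicate 1 of the 1-week vehicle or replicate 1 of 5 nM (adjusted p up to 0.0627), and without the pair of arrays that may have changed places. The second probe set, 207957_s_at, rose with 5 nM at 1 week (0.63, adjusted p = 0.0206) but did not pass with 50 nM at 1 week (0.18, adjusted p = 0.427) or at 4 weeks (-0.36, adjusted p = 0.0835, and -0.13, adjusted p = 0.516). Its rise with 5 nM at 1 week did not pass without the pair of arrays (0.57, adjusted p = 0.118), and it differed between the vehicles (0.67, adjusted p = 0.022). The PRKCB changes with 50 nM, and the fall with 5 nM at 4 weeks, are therefore those of 1 probe set.

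Genes listed as markers of fibroblasts also differed between the groups, though not all of them alike. Of 12 fibroblast markers 11 were tested, and their summed signal was 4325 to 4925 in the 1-week vehicle, 7087 to 7500 with 5 nM and 6794 to 7283 with 50 nM at 1 week, then 6951 to 7174 in the 4-week vehicle, 4880 to 5570 with 5 nM and 4707 to 5131 with 50 nM. At 1 week 6 of the 11 rose with each dose (54.5%, against 6.59% of all genes with 5 nM and 20.1% with 50 nM). Without the pair of arrays that may have changed places, 3 and 6 rose. The 4-week vehicle itself was above the 1-week vehicle for 4 of the 11 and below it for 0 (36.4%, against 3.6% of all genes). After 4 weeks 5 fell and 1 rose with 5 nM (54.5%, against 32.9% of all genes), the riser being LUM (1.83 ± 0.562, adjusted p = 0.0186), and 6 fell with 50 nM (54.5%, against 41.3%). COL1A1 and COL1A2 were not among those 6 (0.01, adjusted p = 0.961, and -0.285, adjusted p = 0.305). COL1A1 and DCN read 942.4 ± 94.2 and 745.5 ± 8.93 (SD, n = 3) in the 4-week vehicle, while POSTN was below 50 on all arrays. Another list held 8 smooth muscle and pericyte markers, of which only 3 were tested. Of these, 2 rose with each dose at 1 week (66.7%, against 6.59% of all genes with 5 nM and 20.1% with 50 nM). The 4-week vehicle was above the 1-week vehicle for 2 of the 3 and below it for 0 (66.7%, against 3.6%). At 4 weeks 1 of them fell with 5 nM (33.3%, against 32.9%) and 3 with 50 nM (100%, against 41.3%). All samples were of 1 cell line, and the arrays do not show which cells carried these transcripts. Any link of these genes with the PRKCB result was not tested.

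In the protein kinase C family 9 of 11 listed relatives were tested. At 1 week 0% were called with 5 nM and 11.1% with 50 nM, against 6.59% and 20.1% of all genes. At 4 weeks 33.3% were called with each dose, against 32.9% and 41.3%. PRKCZ alone rose with 50 nM at 1 week (0.97, adjusted p = 0.0486), a call lost without the pair of arrays (adjusted p = 0.0753). At 4 weeks PRKD1, a kinase that protein kinase C activates, rose with 5 nM (0.98 ± 0.277, adjusted p = 0.0115) and fell with 50 nM (-1.36, adjusted p = 0.000883), a difference between doses of -2.34 (adjusted p = 0.000233). PRKD3 rose with both doses, by 0.59 and 0.63. PRKCD, a lipid-activated isoform, fell with 5 nM (-0.81, adjusted p = 0.00383) and PRKCI rose with 50 nM (0.34, adjusted p = 0.0407).

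CAV1 and ID2 changed most. CAV1 encodes caveolin-1, the coat protein of caveolae, small pits of the plasma membrane, and ID2 encodes a helix-loop-helix protein without a DNA-binding region that holds E proteins off DNA. Their upstream sequences are shown because the pair fell together, and that of PRKCB because its change was of another form. Each is the 250 bases before the outermost RefSeq gene start in GRCh38.p14, 5′ to 3′ along the gene's strand, with GGAA and its reverse complement TTCC in capitals.
CAV1, chr7:116524759-116525008, plus strand: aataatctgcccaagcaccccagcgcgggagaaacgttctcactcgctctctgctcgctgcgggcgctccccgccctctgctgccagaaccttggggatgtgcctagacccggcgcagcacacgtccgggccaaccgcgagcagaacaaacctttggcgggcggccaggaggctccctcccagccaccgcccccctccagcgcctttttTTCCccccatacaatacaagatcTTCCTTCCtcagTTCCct
ID2, chr2:8681806-8682055, plus strand: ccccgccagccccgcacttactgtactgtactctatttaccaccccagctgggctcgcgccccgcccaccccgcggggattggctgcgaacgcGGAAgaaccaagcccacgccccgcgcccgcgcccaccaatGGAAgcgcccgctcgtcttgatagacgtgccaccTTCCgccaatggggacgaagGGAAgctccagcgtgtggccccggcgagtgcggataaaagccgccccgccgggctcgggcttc
PRKCB, chr16:23835733-23835982, plus strand: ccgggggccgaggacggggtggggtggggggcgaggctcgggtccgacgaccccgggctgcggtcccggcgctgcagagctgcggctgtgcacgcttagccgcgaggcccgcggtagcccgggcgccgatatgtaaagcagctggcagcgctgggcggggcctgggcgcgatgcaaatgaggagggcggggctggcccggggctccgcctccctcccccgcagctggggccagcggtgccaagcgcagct

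The CAV1 stretch held 4 copies of GGAA on either strand, of which a pair made up GGAAGGAA (read as TTCCTTCC) close to the gene start. ID2 held 4 single copies and PRKCB held 0. GGAA is a short word and occurred in 92.7% of 35116 human promoter stretches of the same length, with a median of 3 copies. GGAAGGAA occurred in 3.1% of them, and among the 8 listed genes with a stretch at the outermost start CAV1 was the only one to hold it. The longer ETS word CCGGAAGT, found in 3.4% of all stretches, was in none of the 8. Such matches describe letters and show no binding.

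The leading CAV1 probe set, 212097_at, read 3967, 4776 and 960 in the 1-week vehicle, 4544, 4641 and 4708 with 5 nM, and 4111, 4021 and 4664 with 50 nM. At 4 weeks it read 4836, 4716 and 4836 in the vehicle, 5777, 5288 and 5433 with 5 nM, and 1442, 1146 and 3208 with 50 nM. The 3 arrays of 50 nM at 4 weeks were below every other array but 1, the 1-week vehicle replicate 3, which was the lowest of all 18.

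CAV1 fell with 50 nM at 4 weeks, with a log2 fold change of -1.46 ± 0.413 (2.75-fold; adjusted p = 0.00902). Against 5 nM of the same week the change was -1.66 (3.15-fold, adjusted p = 0.0104), and 5 nM itself was 0.20 ± 0.413 from the vehicle (adjusted p = 0.746). The second probe set, 203065_s_at, read 2267, 2658 and 2675 in the 4-week vehicle and 304, 343 and 865 with 50 nM, a log2 fold change of -2.49 ± 0.556 (adjusted p = 0.00179). With 5 nM at 4 weeks it read 2432, 2358 and 2416, which overlapped the vehicle (-0.07, adjusted p = 0.938). Replicate 3 of 50 nM fell least: without it the CAV1 change was -1.90, and without replicate 2 it was -1.16 and lost its call (adjusted p = 0.055). The CAV1 difference between doses lost its call without replicate 1 or replicate 2 of 50 nM (adjusted p up to 0.065).

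ID2 lies at chr2:8682056-8684461. Its leading probe set, 201565_s_at, read 2934, 3296 and 1046 in the 1-week vehicle, 2868, 2405 and 2921 with 5 nM, and 2385, 2437 and 2796 with 50 nM. The 4-week arrays read 2901, 3018 and 3017 in the vehicle, 3044, 3265 and 3229 with 5 nM, and 843, 884 and 1752 with 50 nM. Here too the 50 nM arrays of 4 weeks and replicate 3 of the 1-week vehicle were the 4 lowest arrays.

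ID2 fell with 50 nM at 4 weeks, at -1.45 ± 0.309 against the vehicle (2.72-fold; adjusted p = 0.00132) and -1.54 against 5 nM (adjusted p = 0.0027). The call held without any single array, with adjusted p up to 0.0114. Probe set 201566_x_at gave -1.22 ± 0.39 (adjusted p = 0.0187); a further probe set that the annotation gives to ID2 and ID2B together was left out.

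**Figure D4:**
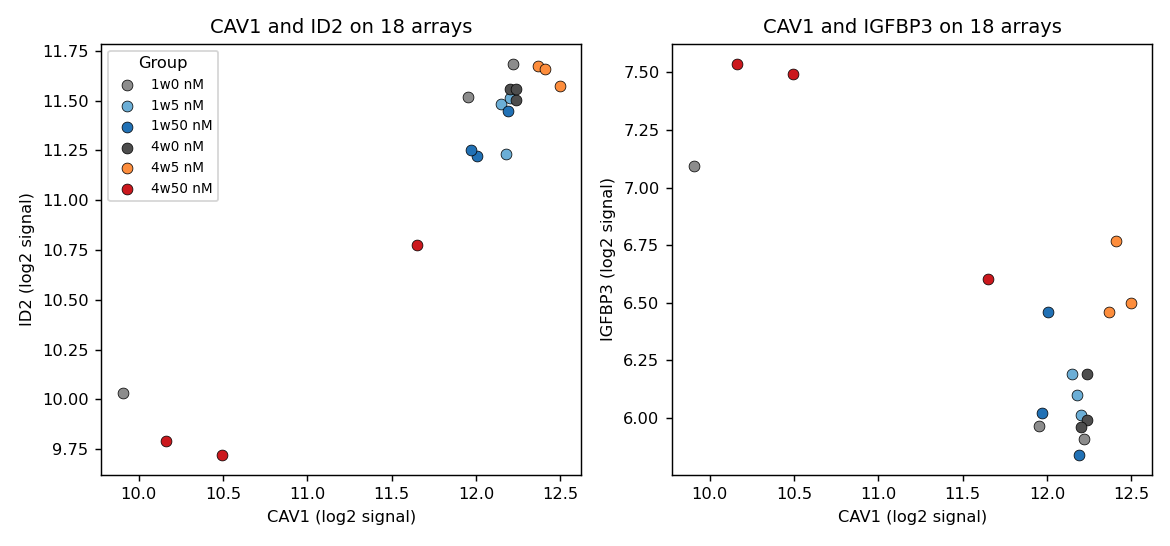
Log2 signal of ID2 (left) and IGFBP3 (right) against CAV1 on 18 arrays, coloured by group. A pair of 4-week 50 nM arrays and 1 array of the 1-week vehicle lie at low CAV1, low ID2 and high IGFBP3, the third 4-week 50 nM array lies between, and the other 14 arrays lie together at high CAV1.

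Across the 18 arrays CAV1 and ID2 had a Pearson r of 0.96, a value carried by the few arrays at low signal. As a description over the same arrays, with 9162 genes to choose from, the genes nearest to CAV1 were HSPB8 (r = 0.982) and RPL39L (r = 0.98), and those nearest to ID2 were OLFML3 (r = 0.987) and RPL39L (r = 0.985). The 1-week vehicle array changed what the 1-week comparison gave for CAV1: 50 nM against vehicle was 0.69 with it and -0.03 without it, and neither value passed.

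Of the other caveolae proteins 6 of 7 were tested. With 50 nM at 4 weeks 3 fell and 0 rose (50%, against 41.3% of all genes). They were CAV2, the partner of caveolin-1 (-1.26 ± 0.317, adjusted p = 0.00413), and the coat proteins CAVIN1 (-0.67, adjusted p = 0.00132) and CAVIN2 (-1.12, adjusted p = 3.55e-05). With 5 nM CAVIN1 (-0.86) and CAVIN2 (-1.17) fell too, but CAV2 was at -0.16 (adjusted p = 0.729), and its difference between doses was called (-1.10, adjusted p = 0.0226). At 1 week CAVIN1 rose with both doses (0.76 and 0.71), as did PACSIN2, which bends membranes (0.65 and 0.56). Of the 6, 33.3% were called with 5 nM at 4 weeks, against 32.9% of all genes. The same share was called with each dose at 1 week, against 6.59% with 5 nM and 20.1% with 50 nM. Between the vehicles 1 of the 6 was higher at 4 weeks than at 1 week and 0 were lower (16.7%, against 3.6% of all genes).

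Among the relatives and targets of ID2, all 6 listed were tested. At 4 weeks 50% were called with 5 nM and 33.3% with 50 nM, against 32.9% and 41.3% of all genes. ID1 (-0.62, adjusted p = 0.0204) and ID4 (-0.32, adjusted p = 0.0323) fell with 5 nM at 4 weeks, where ID2 did not, and neither passed with 50 nM (-0.02 and 0.10). The dose difference was called for ID1 (0.60, adjusted p = 0.0422) and ID4 (0.42, adjusted p = 0.0134), opposite in sign to that of ID2. Of the E proteins TCF3 rose with both doses (0.53 and 0.25), and TCF12 rose with 50 nM (0.37, adjusted p = 0.0369).

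IGFBP3, a secreted carrier of insulin-like growth factors (chr7:45912245-45921272), was near the low end of the scale. Its leading probe set, 210095_s_at, read 62.4, 59.9 and 137 in the 1-week vehicle, 73.05, 68.6 and 64.6 with 5 nM, and 87.9, 65.0 and 57.1 with 50 nM. At 4 weeks it read 63.55, 62.3 and 72.9 in the vehicle, 90.5, 88.1 and 109 with 5 nM, and 180, 186 and 97.3 with 50 nM. At 4 weeks replicate 3 of 50 nM lay within the range of 5 nM.

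The log2 fold change of IGFBP3 was 0.53 ± 0.277 with 5 nM (adjusted p = 0.152) and 1.17 ± 0.277 with 50 nM (2.24-fold; adjusted p = 0.00289) at 4 weeks. The doses differed by 0.64, which did not pass (adjusted p = 0.125). The second probe set, 212143_s_at, gave 0.75 ± 0.301 with 50 nM (adjusted p = 0.0552), so the call rests on the leading probe set. Over 18 arrays the r of IGFBP3 was -0.85 with ID2 and -0.798 with CAV1.

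The other IGF genes moved in both directions. Of 9 tested, 2 rose with 5 nM and 3 rose with 50 nM at 1 week, with 1 lower at 50 nM (22.2% and 44.4%, against 6.59% and 20.1% of all genes). At 4 weeks the 5 nM cells had 2 higher and 3 lower, and the 50 nM cells had 3 higher and 4 lower (55.6% and 77.8%, against 32.9% and 41.3%). Between the vehicles 1 of the 9 was higher at 4 weeks than at 1 week and 0 were lower (11.1%, against 3.6% of all genes). IGFBP4, another carrier, had the widest swing, 1.48 and 1.54 with 5 nM and 50 nM at 1 week. At 4 weeks it was at -1.33 ± 0.329 (adjusted p = 0.00517) and -2.11 ± 0.329 (adjusted p = 9.3e-05). IGF1R, the growth factor receptor, was -0.75 with 50 nM at 1 week (adjusted p = 0.0439) and rose at 4 weeks by 1.06 and 1.05. Without the pair of arrays the 1-week call of IGF1R was lost (adjusted p = 0.153), as was that of IGFBP4 with 5 nM (adjusted p = 0.0805). IGF2R rose with 50 nM at 4 weeks (1.00, adjusted p = 0.000555), and the ligand IGF1 fell with 5 nM (-0.90, adjusted p = 0.000322).

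**Figure D5:**
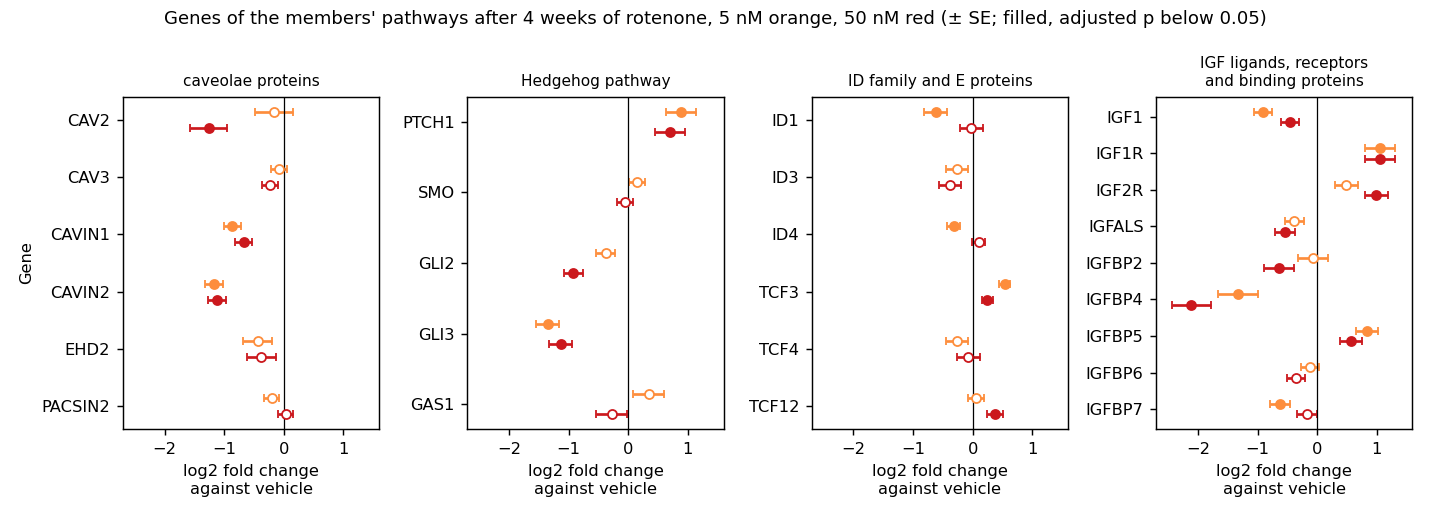
Log2 fold change against vehicle after 4 weeks for the tested relatives of CAV1, GLI1, ID2 and IGFBP3, 5 nM in orange and 50 nM in red. Whiskers are standard errors and filled points have an adjusted p below 0.05; CAV2 is filled only with 50 nM, PTCH1 lies right of 0 and GLI3 left of 0 with both doses, and IGFBP4 lies farthest to the left.

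STEAP1, a metalloreductase-family membrane protein (chr7:90154469-90164827), was among the brighter genes. It read 2851, 2841 and 2202 in the 1-week vehicle, 2206, 2346 and 2628 with 5 nM, and 1888, 2030 and 2321 with 50 nM. The 4-week arrays read 2782, 2788 and 2763 in the vehicle, 2936, 3032 and 3178 with 5 nM, and 2690, 2791 and 3202 with 50 nM. The fall with 50 nM at 1 week was small and its groups overlapped (-0.33 ± 0.106, adjusted p = 0.0342). It lost its call without any 1 of 4 arrays, replicates 1 and 2 of the 1-week vehicle and of 50 nM (adjusted p up to 0.154), and was -0.46 and called without replicate 3 of the vehicle. The 3 calls with 50 nM at 1 week, for GLI1, PRKCB and STEAP1, held without the pair of arrays that may have changed places.

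At 4 weeks the STEAP1 changes were 0.13 and 0.06, and neither passed. STEAP3, a ferrireductase of the same family, did pass in all 4 comparisons: it rose at 1 week (0.86 and 0.90, the first not called without the pair of arrays, adjusted p = 0.174) and fell at 4 weeks (-1.56, adjusted p = 6.49e-05, and -0.68, adjusted p = 0.019). STEAP1B, the other relative tested, passed in none of the 4. Between the vehicles 1 of these 2 relatives was higher at 4 weeks than at 1 week and 0 were lower (50%, against 3.6% of all genes).

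NKX2-2, a homeobox factor of neural development (chr20:21511017-21522689), read 1303, 1618 and 816 in the 1-week vehicle, 1484, 1621 and 1389 with 5 nM, and 1519, 1404 and 1309 with 50 nM. At 4 weeks it read 1535, 1616 and 1657 in the vehicle, 1471, 1793 and 2005 with 5 nM, and 1329, 1241 and 1345 with 50 nM. The change with 50 nM at 4 weeks did not pass (-0.30 ± 0.175, adjusted p = 0.187). It passed without replicate 3 of the 1-week vehicle, which only enters through the shared estimate of spread (adjusted p = 0.0371).

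EZH2, the methyltransferase of Polycomb complex PRC2 (chr7:148807383-148884291), had no call in any of the 9 comparisons. It read 674, 701 and 432 in the 1-week vehicle, 699, 813 and 754 with 5 nM, and 565, 628 and 752 with 50 nM. The 4-week arrays read 781, 831 and 802 in the vehicle, 753, 681 and 741 with 5 nM, and 604, 538 and 767 with 50 nM. At 4 weeks the log2 fold changes were -0.15 with 5 nM (adjusted p = 0.522) and -0.35 ± 0.17 with 50 nM (adjusted p = 0.105).

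Of the other PRC2 subunits and partners 8 of 10 were tested. With 50 nM at 4 weeks 3 rose and 0 fell (37.5%, against 41.3% of all genes). They were PHF1, a chromatin-reading partner (0.58 ± 0.128, adjusted p = 0.00167), JARID2, a recruiter of the complex (0.51, adjusted p = 0.0145), and the core subunit SUZ12 (0.30, adjusted p = 0.039). With 5 nM 0 of 8 passed at either time (6.59% of all genes at 1 week, 32.9% at 4 weeks). With 50 nM at 1 week RBBP7 alone, a histone-binding subunit, rose (0.36, adjusted p = 0.0109), or 12.5% against 20.1% of all genes.

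Set in order over the 6 groups, the span from the highest to the lowest group was 3.15-fold for CAV1, 2.91-fold for ID2, 2.65-fold for GLI1, 2.24-fold for IGFBP3, 1.66-fold for FLI1, 1.58-fold for PRKCB, 1.47-fold for STEAP1, 1.45-fold for NKX2-2 and 1.37-fold for EZH2. CAV1 had a wider span than 93.4% of all genes tested and EZH2 than 23.8%. Neighbours in the order of groups differed in only a pair of cases: GLI1 between the 1-week vehicle and 5 nM at 4 weeks (0.52, adjusted p = 0.0337), and ID2 between the 1-week vehicle and 50 nM at 4 weeks (0.98, adjusted p = 0.0209). STEAP1 and FLI1 were highest at 4 weeks with rotenone and lowest at 1 week with 50 nM, and GLI1 and PRKCB had their highest groups at 1 week with rotenone and their lowest at 4 weeks with 50 nM.

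The genes with the most similar course differed from gene to gene, as Pearson r over 18 arrays that share groups and processing. They were EMX1 (0.967) and MUC13 (0.956) for GLI1, FMOD (0.958) and HLA-E (0.937) for PRKCB, CAST (0.944) and ERMP1 (0.941) for IGFBP3, and TMEM33 (0.947) and WDR26 (0.93) for FLI1. For STEAP1 they were MED17 and TWSG1 (both 0.96), for NKX2-2 CREB3L2 (0.929) and DCTN5 (0.911), and for EZH2 LRRC59 (0.927) and PCDH8 (0.902). Between listed genes GLI1 and PRKCB had an r of 0.865 and GLI1 and STEAP1 of -0.846.

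Further genes known to be activated by the fusion were taken from a list of 25, of which 19 were tested. In 1-week cells 5 were higher and 0 lower after 5 nM, and 7 higher and 1 lower after 50 nM (26.3% and 42.1% called, against 6.59% and 20.1% of all genes). Without the pair of arrays that may have changed places these became 1 and 0, and 4 and 0. The 4-week vehicle itself was above the 1-week vehicle for 4 of the 19 and below it for 0 (21.1%, against 3.6% of all genes). In 4-week cells 2 were higher and 3 lower after 5 nM, and 0 higher and 6 lower after 50 nM (26.3% and 31.6%, against 32.9% and 41.3%). The matrix protein gene TNC led, at 2.87 ± 0.45 and 2.38 ± 0.45 at 1 week and -1.79 and -1.75 at 4 weeks (adjusted p between 0.00114 and 0.00565). With 50 nM at 4 weeks the neural factor SOX2 (-1.38, adjusted p = 0.00219), the mitotic kinase AURKB (-1.07, adjusted p = 0.0136) and the cell cycle regulator CCND1 (-0.92, adjusted p = 0.000543) fell as well.

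Of 20 further genes known to be repressed by the fusion 17 were tested. At 1 week 4 rose with 5 nM and 5 with 50 nM, none falling (23.5% and 29.4% called, against 6.59% and 20.1% of all genes). Without the pair of arrays these became 3 and 5. The 4-week vehicle itself was above the 1-week vehicle for 4 of the 17 and below it for 0 (23.5%, against 3.6% of all genes). In 4-week cells 1 was higher and 5 lower after 5 nM, and 1 higher and 3 lower after 50 nM (35.3% and 23.5%, against 32.9% and 41.3%). SNAI2, a factor of mesenchymal cells, went from 1.93 and 1.24 at 1 week to -0.71 (adjusted p = 0.0658) and -1.95 (adjusted p = 6.14e-05) at 4 weeks. TAGLN, an actin-binding protein, was at 1.61 and 1.53, then -0.88 and -1.42, all called. IGFBP5 alone rose at 4 weeks, by 0.84 and 0.57. COL1A1 and COL1A2 of this list are also among the fibroblast markers, so the lists are not separate.

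CD99 fell with 50 nM at 4 weeks (-0.55 ± 0.123, adjusted p = 0.00184), the third of the Ewing sarcoma markers to do so beside CAV1 and CCND1 (3 of 7 fell, 0 rose; 42.9%, against 41.3% of all genes). With 5 nM at 4 weeks 0 of these 7 passed. Of 10 listed Schwann and substrate-adherent cell markers 6 were tested. At 1 week 1 rose with 5 nM and 2 with 50 nM (16.7% and 33.3%, against 6.59% and 20.1% of all genes), and 0 passed without the pair of arrays. After 4 weeks 4 fell with 5 nM and 2 with 50 nM (66.7% and 33.3%, against 32.9% and 41.3%). With 50 nM against 5 nM at 4 weeks 4 were higher and 1 lower (83.3%, against 17.4%). Between the vehicles 1 was higher at 4 weeks (16.7%, against 3.6%).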

How the data were processed

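Total RNA of SK-N-MC cells was hybridized to Affymetrix oligonucleotide arrays, and the authors normalized the arrays and summarized each probe set as a model-based expression index in dChip; the normalization method and dChip version are not given in the sources used here. The deposited values are linear signal intensities between 0.46 and 11258.4. They were used as deposited, with values under 16 set to 16 before log2. Of 22283 probe sets, 68 were controls, 19065 had 1 gene in the platform annotation, 1043 had several and 2107 had none. Tests took the probe sets of 1 gene that reached 50 on 3 or more arrays (13705 probe sets, 9162 genes). The brightest such probe set on average, called leading, stood for its gene.

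A mean for each of the 6 groups was fitted in limma 3.58.1 (R 4.3.3) with an intensity trend, giving 12 residual degrees of freedom. Calls have a Benjamini-Hochberg adjusted p below 0.05 over all genes of a comparison. No test compared signals between genes. Remarks on bright or dim genes and sums of signals over genes are descriptions. The number of arrays, 3 a group, limits the precision. Groups said not to overlap are a description of 3 arrays against 3 and no support for a change. The share of all genes whose groups did not overlap is not given here.

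The listed genes were given with all their probe sets. Of the 15 lists of related genes the text gives counts and names at most 4 called genes with the largest change in a comparison, plus EWSR1 and CD99, and for each listed gene the 2 genes with the highest r. Members and lists were chosen with earlier results of these data known. Alternatives were floors of 8 and 32, a started log, quantile and median scaling, other filters and probe set rules, only the arrays compared, no trend, array weights, a replicate block, the methods' t-test and leaving out arrays. Gene positions and upstream sequences are from RefSeq (GRCh38.p14); GLI1 and FLI1 had no upstream entry. The transcript level of NR0B1 was not analysed here.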

Additional observations from a re-analysis of the deposited data

Results flagged for a closer look

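For 10 pairs of gene and dose the effect of rotenone differed between 4 weeks and 1 week by the test of that difference (log2 scale, 4 weeks minus 1 week, ± SE, limma with adjustment over all genes). With 5 nM these were PRKCB at -0.9897 ± 0.161 (adjusted p = 0.000237), GLI1 at -1.047 ± 0.247 (adjusted p = 0.00384) and FLI1 at 0.5776 ± 0.215 (adjusted p = 0.0476). With 50 nM GLI1 was at -1.586 ± 0.247 (adjusted p = 6.63e-05), PRKCB at -1.053 ± 0.161 (adjusted p = 5.8e-05), CAV1 at -2.154 ± 0.584 (adjusted p = 0.00626) and ID2 at -1.674 ± 0.438 (adjusted p = 0.00487). IGFBP3 at 1.381 ± 0.392 (adjusted p = 0.00844), FLI1 at 0.6917 ± 0.215 (adjusted p = 0.0146) and STEAP1 at 0.3902 ± 0.15 (adjusted p = 0.0425) went the other way. The effects share no vehicle arrays between weeks, but each rests on the vehicle of its week, and without replicate 3 of the 1-week vehicle the CAV1 difference with 50 nM was -1.43 and that of ID2 was -1.15, both still called. Leaving out 1 array at a time ended the FLI1 call with 5 nM in 12 of 18 cases (adjusted p up to 0.13) and the STEAP1 call in 10 of 18 (adjusted p up to 0.112). The IGFBP3 call was lost with the mean of its probe sets (adjusted p = 0.075) and the FLI1 call with 50 nM under quantile normalization (adjusted p = 0.0758). On the second probe sets the change of the 50 nM effect was called for CAV1 (203065_s_at, -3.20, adjusted p = 0.00314) but not for ID2 (201566_x_at, -0.89, adjusted p = 0.199), IGFBP3 (212143_s_at, 0.37, adjusted p = 0.497) or PRKCB (207957_s_at, -0.31, adjusted p = 0.258). For FLI1 it was 1.76 on 204236_at (adjusted p = 3.6e-05) and -0.25 on 211825_s_at (adjusted p = 0.316).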

How the results depend on the processing

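Of 23 pairs of gene and comparison called, 9 kept their call and direction under every setting run (15 alternatives and 18 single-array omissions, without the t-test for changes in effect), and none of the 23 changed direction. Counts of listed genes called with 5 nM at 1 week went from 1 to 0 with median scaling, with only the arrays compared, with array weights, with the methods' t-test, and without 5 nM replicate 2 and 50 nM replicate 3 together, and ranged from 0 to 2 when 1 array was left out. With 50 nM at 1 week the count went from 3 to 0 with only the arrays compared and with the methods' t-test. STEAP1 lost that call with no filter and with no intensity trend, and FLI1 gained one in 9 of 33 settings. With 5 nM at 4 weeks it went from 2 to 4 with only the arrays compared and with array weights, and to 1 with the methods' t-test. With 50 nM at 4 weeks it went from 5 to 8 with only the arrays compared and with array weights; with the t-test CAV1, ID2 and IGFBP3 lost that call (adjusted p = 0.115, 0.0829 and 0.168) and FLI1 and NKX2-2 gained one. Between doses at 1 week it went from 0 to 3 with array weights, and at 4 weeks from 2 to 5 with array weights and to 0 with the methods' t-test, with single-array omissions giving 1 to 4. Between the vehicles it went from 0 to 1 with a filter of 100 on 3 arrays and with the mean of the probe sets, and single-array omissions gave 0 to 1. The causes were not tested, beyond the fewer arrays that the fits on only the arrays compared hold. Among all genes called with 5 nM at 1 week 75.5% were higher, against 57.4% with quantile and 52.5% with median scaling; for the vehicles 80% became 59.6% and 53%, and for the change of the 5 nM effect 46.5% became 61.4% with median scaling, which moved the median of all genes by 0.128. Replicate numbers did not pair the arrays: deviations of same-numbered arrays had a mean r of -0.0149 (45 pairs), and 7 of 18 arrays correlated best with their own number. With the replicate block the counts were 1, 3, 2 and 5 for the comparisons with vehicle, and 2 and 6 for the changes in effect, where FLI1 with 5 nM and STEAP1 with 50 nM lost their calls. Signal over background limits IGFBP3 and GLI1, the dimmest of the 9 genes relative to the filter of 50.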
